A study of Mus musculus with 15 samples.

Results

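The ubiquitin-conjugating enzymes and the ubiquitin-specific proteases were followed in adult mouse cortex through every gene of the RNA-seq table whose symbol began with *Ube2*, or with *Usp* and a digit. By that rule there were 87 genes, 35 *Ube2* and 52 *Usp*, of the 23235 genes of the table. Cortex RNA came from adult male mice on a light/dark cycle with standard chow, killed in the light phase at Zeitgeber (Zt) +6 h or in the dark phase at Zt +16 h. WT mice were C57BL/6J (3 at Zt +6 and 2 at Zt +16), and *Snord116del* (+/-) mice of the strain B6(Cg)-Snord116tm1.1Uta/J (2 at each time) had inherited a germline deletion of the *Snord116* snoRNA cluster from their fathers. By the study's methods the WT and *Snord116del* mice were littermates, born to C57BL/6 mothers and fathers heterozygous for the deletion. No group received a treatment. The study asked how loss of *116HG*, the long non-coding RNA spliced from the host transcript of that cluster, changes cortical transcripts at the 2 times of day. It also mapped DNA pulled down with *116HG* by chromatin isolation by RNA purification (ChIRP) from adult brain: 2 WT libraries with *116HG* oligos, 1 *Snord116del* library with the same oligos, and 1 library of each genotype with non-specific control (NSC) oligos.

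Ubiquitin is a small protein that is attached to other proteins through a relay. An E1 enzyme activates it, an E2 carries it on a cysteine, and an E3 ligase directs it from the E2 to a substrate, either directly or, for HECT ligases, through a cysteine of its own. The E2 enzymes share a compact catalytic core, whereas the USP proteases, the most numerous class of deubiquitinases, are mostly large proteins with added domains that bind substrates, ubiquitin chains or partners, and cut ubiquitin off again. In neurons both sides of this exchange act on synaptic proteins, on mitochondria and on proteins bound for the proteasome. A few members carry the name only: UBE2V1 and UBE2V2 have an E2 fold without the cysteine, USP39, USP53 and USP54 are held to be inactive as proteases, *Ube2cbp* encodes no E2, and *Usp6nl* encodes no deubiquitinase.

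The table gives 1 FPKM value per gene for each group of 2 or 3 mice. Spread between mice could not be seen, no difference below has a replicate check, and no p-value could be given. A difference was therefore described on the scale of log2(FPKM + 1), which understates the change of low genes, and a gene was counted as higher or lower if FPKM + 1 changed by 1.5-fold or more, provided that the larger value reached 1 FPKM. Only genes whose 4 groups averaged 1 FPKM or more were counted. They were 30 of the 35 *Ube2* genes, 40 of the 52 *Usp* genes and 10297 genes in all. The groups differed in the distribution of FPKM, and whether they were on a common scale was not tested. At Zt +6 the median FPKM of these genes was 3.17 (WT) and 5.63 (*Snord116del*), and at Zt +16 it was 2.90 and 4.00, while FPKM summed over the table to 159300, 160199, 216422 and 342188 in the same order. The depth of each library cannot be read from the table, and because the cortex was analysed in bulk, fewer cells of a type and less RNA per cell cannot be told apart.

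The *Ube2* genes had the shorter transcripts and the higher levels. The longest annotated transcript had a median of 2.89 kb among the 30 *Ube2* genes (range 0.988 to 5.21 kb) and 4.42 kb among the 40 *Usp* genes (range 2.24 to 11.9 kb). Of the *Usp* genes, 16 had a transcript over 5 kb, against 1 *Ube2* gene, *Ube2o*. Mean FPKM over the 4 groups ranged from 1.59 to 68.7 with a median of 7.59 for *Ube2*, and from 1.03 to 11.5 with a median of 3.67 for *Usp*, so that the highest *Usp* mean lay only a little above the *Ube2* median. FPKM is a level per transcript length, but the distance between the families differed by group. Median FPKM of *Ube2* and *Usp* was 5.95 and 1.41 in WT at Zt +16, and 7.69 and 6.68 in *Snord116del* at Zt +6. A mean over the 4 groups is thus only a rough guide to the levels of short against long transcripts.

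The most abundant member was *Ube2v1*, the partner that lets UBE2N build Lys63-linked chains, whose FPKM at Zt +6 was 50.1 (WT) and 41.0 (*Snord116del*), and at Zt +16 was 68.3 and 115. In the annotation it overlaps *Tmem189* on the same strand, so reads of the 2 genes may not be separable. *Ube2e1*, a broad chain-initiating E2, was at 39.6, 28.1, 59.8 and 73.4 FPKM in the same order of groups, and the brain-rich *Ube2ql1* at 29.5, 25.6, 36.0 and 55.9. *Ube2m*, the E2 for NEDD8, was at 32.3, 51.7, 19.4 and 35.1 FPKM, and *Ube2b*, which with RAD18 modifies PCNA, at 20.7, 29.8, 29.1 and 39.7. Among the *Usp* genes the highest means belonged to *Usp11*, *Usp2*, *Usp10*, *Usp22* and *Usp14*. *Usp11* stood at 9.62, 12.0, 9.93 and 14.4 FPKM and *Usp2*, a clock-linked protease, at 9.99, 15.2, 6.92 and 12.1. In all of these the highest group was a *Snord116del* group, at Zt +16 in *Ube2v1*, *Ube2e1*, *Ube2ql1*, *Ube2b* and *Usp11* and at Zt +6 in *Ube2m* and *Usp2*.

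**Figure D1:**
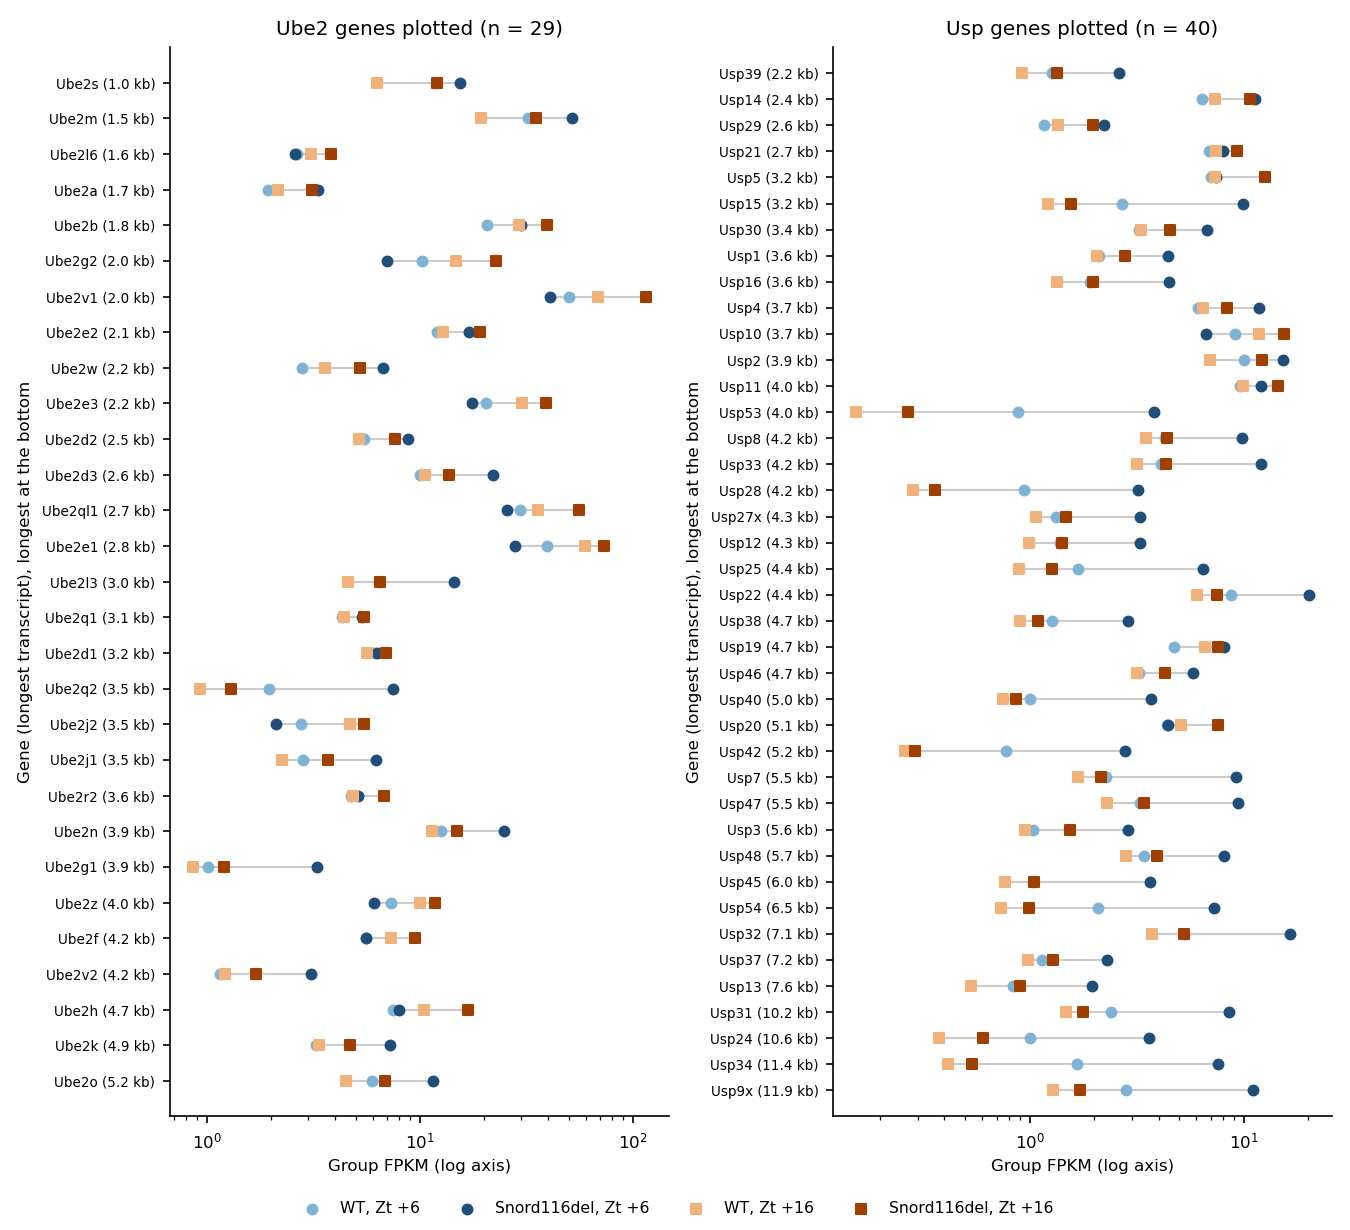
Group FPKM (log axis) of *Ube2* and *Usp* genes that were counted, ordered by the length of the longest transcript; each point is the value of 1 group and the grey line joins the lowest to the highest group. In the lower part of the *Usp* panel, which holds the longest transcripts, the point of *Snord116del* at Zt +6 lies far to the right of the other 3.

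The 17 members left out of the counts averaged under 1 FPKM. They were *Ube2c*, *Ube2cbp*, *Ube2dnl*, *Ube2t* and *Ube2u*, whose means ranged from 0.045 to 0.714 FPKM, and *Usp9y*, *Usp17l5*, *Usp18*, *Usp26*, *Usp35*, *Usp36*, *Usp43*, *Usp44*, *Usp49*, *Usp50*, *Usp51* and *Usp6nl*, with means of 0.0133 to 0.965 FPKM. *Ube2c* and *Ube2t*, which serve mitosis and DNA repair in dividing cells, did not exceed 0.485 and 0.121 FPKM in any group, and the interferon-induced *Usp18*, which removes ISG15, did not exceed 0.465. *Ube2cbp*, *Usp6nl*, *Usp36* and *Usp49* passed 1 FPKM in *Snord116del* at Zt +6 alone (1.37, 2.03, 2.24 and 1.11 FPKM). *Ube2dnl* was listed at 0 in 2 groups. Just inside the limit were *Usp42* (mean 1.03 FPKM) and *Usp13* (1.06), and just outside were *Usp36* (0.965) and *Usp6nl* (0.933). *Usp13*, *Usp28*, *Usp42* and *Usp53* reached 1 FPKM in *Snord116del* at Zt +6 and in no other group, so that they entered the counts through the group in which they were high. Counts and medians over the genes that entered are thus descriptions. Without the limit on the mean, the median FPKM at Zt +6 was 1.52 (WT) and 4.12 (*Snord116del*) over the 52 *Usp* genes and 5.60 and 7.01 over the 35 *Ube2* genes, and at Zt +16 it was 0.987 and 1.45 for *Usp* and 4.87 and 6.85 for *Ube2*.

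At Zt +6 most of the *Usp* genes were higher in *Snord116del* than in WT, and the *Ube2* genes were divided. Of the 40 *Usp* genes, 33 (82.5%) were higher and 0 were lower, with a median difference of 0.92. Of the 30 *Ube2* genes, 12 (40.0%) were higher and 0 lower, with a median of 0.41. Over all 10297 genes, 49.3% were higher and 7.62% lower, and the median difference was 0.57, so a higher value was the common outcome at this time. With every listed gene included and no limit on the mean, 35 of 52 *Usp* (67.3%, median 0.83) and 12 of 35 *Ube2* genes (34.3%, median 0.33) were higher, against 26.0% of all genes (median 0.13). The *Ube2* share was thus below that of all genes with the limit and above it without. The family medians of FPKM were 2.34 in WT and 6.68 in *Snord116del* for the 40 *Usp* genes, and 6.25 and 7.69 for the 30 *Ube2* genes.

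The direction given for *Ube2* at Zt +6 depended on how the groups were scaled. With every group brought to the same median FPKM, 1 *Ube2* gene was higher and 12 were lower, 13 *Usp* genes were higher and 3 lower, and 15.0% of all genes were higher and 24.4% lower. With quantile normalization the counts were 5 higher and 9 lower for *Ube2* and 17 higher and 3 lower for *Usp*, against 22.2% and 20.6% of all genes. The order of the families was kept, with the *Usp* median above the *Ube2* median by 0.51 as deposited and by 0.67 at equal medians. As deposited, the *Usp* median (0.92) lay above the median of 0.57 over all genes, and the *Ube2* median (0.41) below it. That value is no offset common to all genes. The median difference ran from -0.47 in the shortest bin of transcript length to 1.33 in the longest.

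**Figure D2:**
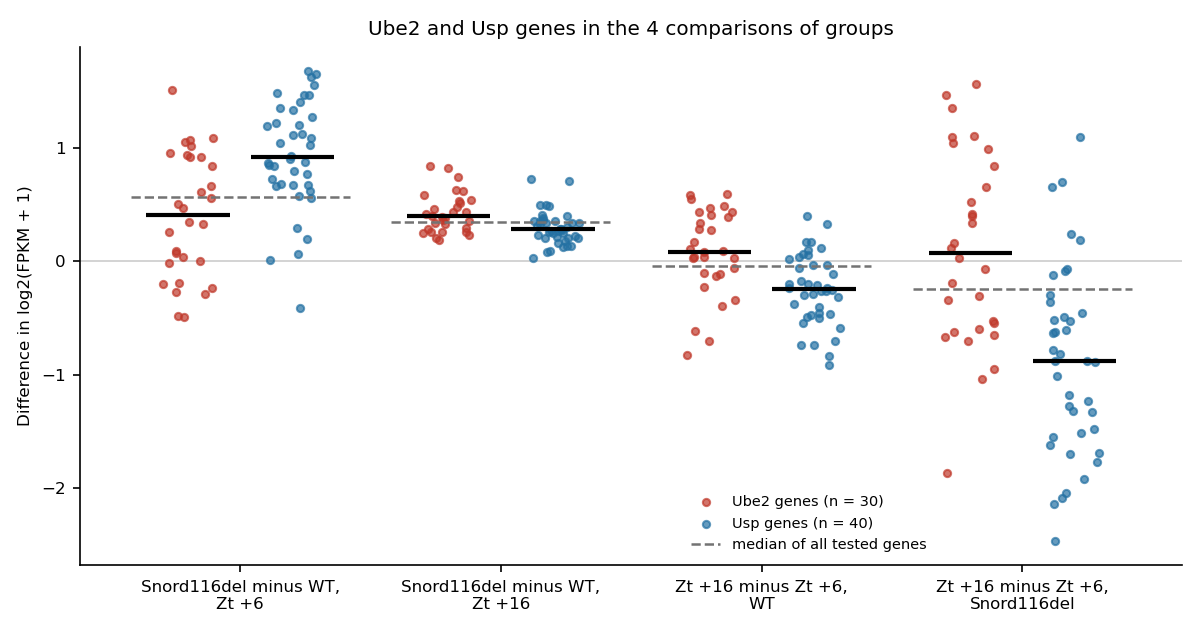
Differences in log2(FPKM + 1) of the *Ube2* (n = 30) and *Usp* (n = 40) genes counted, in the 4 comparisons of groups; each point is 1 gene, black bars are family medians and dashed lines the median of all 10297 genes counted. The families part most in *Snord116del* between the times (medians 0.07 and -0.88) and least between genotypes at Zt +16 (0.40 and 0.28).

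Of the 5 *Usp* genes that differed most at Zt +6, 3 had transcripts over 10 kb. *Usp34*, a regulator of Wnt signalling through axin, had FPKM values of 1.66 (WT) and 7.57 (*Snord116del*) at Zt +6 and of 0.414 and 0.540 at Zt +16, a difference of 1.69 at Zt +6. *Usp9x*, an X-linked protease needed for neuronal growth, was at 2.81 and 11.0 FPKM, then 1.28 and 1.71, with a difference of 1.65 at Zt +6. *Usp7*, which acts on MDM2 and on chromatin, was at 2.28 and 9.14, then 1.68 and 2.14, with a difference of 1.63. In all 3 the *Snord116del* value at Zt +6 was the highest by a wide margin, and the next highest group was WT at Zt +6. *Usp15*, with a transcript of only 3.23 kb, was at 2.69, 9.85, 1.21 and 1.55 FPKM (difference 1.56 at Zt +6), and *Usp31*, with 10.2 kb, at 2.39, 8.50, 1.48 and 1.78 (1.49). These genes were named for the size of this difference, which is a description.

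The role classes below are read against the 49.3% of all genes, and the 70.3% of genes at the lengths of the *Usp* members, that were higher at Zt +6. Of the 3 proteases that work with free chains or the proteasome, *Usp14* and *Usp13* were counted as higher, and *Usp13* is among the genes that entered the counts through *Snord116del* at Zt +6. *Usp14*, which sits on the proteasome and trims chains there, was at 6.39 and 11.2 FPKM, then 7.32 and 10.7 at Zt +16, and was counted as higher at Zt +6 with a difference of 0.73. *Usp5*, which takes apart unanchored chains, was at 7.02 and 7.37 at Zt +6 and at 7.33 and 12.6 at Zt +16, so its difference was 0.06 in the light and 0.71 in the dark. Its long relative *Usp13* was low, at 0.838, 1.95, 0.535 and 0.898 FPKM (0.68 at Zt +6). *Usp14* and *Usp5* had similar levels in WT at both times, and the difference of *Usp14* at Zt +16 was 0.49, under the limit.

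Of 8 *Usp* genes of chromatin, 6 were counted and 5 were higher at Zt +6 (median 0.92, and 0.11 beyond genes of their length), and the other was *Usp21*, at 6.86, 8.00, 7.44 and 9.28 FPKM. *Usp22*, the deubiquitinase of the SAGA complex, was at 8.68, 20.2, 6.01 and 7.46 FPKM, the highest level of any *Usp* gene in any group, and *Usp16*, which acts on histone H2A, at 1.92, 4.47, 1.34 and 1.97. The 3 partners of WDR48 were all higher at Zt +6, but with a median beyond genes of their length of -0.03: *Usp1*, which acts on PCNA and FANCD2, was at 2.12, 4.43, 2.05 and 2.78 FPKM, *Usp12* at 1.38, 3.28, 0.996 and 1.42, and *Usp46* at 3.25, 5.78, 3.17 and 4.27. The differences of *Usp14* and *Usp46* changed sign to -0.014 and -0.0014 when the groups were scaled to equal medians, where the median of all genes was -0.06.

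Of 7 genes acting on membrane traffic and mitochondria, 6 were counted and 5 were higher at Zt +6 (median 0.95, and 0.24 beyond genes of their length). *Usp8*, which works at the endosome on receptors and ESCRT proteins, was at 4.29, 9.79, 3.50 and 4.35 FPKM. Its annotation overlaps *Usp50* on the opposite strand, which was near 0.1 FPKM. *Usp30*, which opposes mitophagy at the outer mitochondrial membrane, was at 3.25, 6.74, 3.30 and 4.50. The exception was *Usp20*, at 4.39 and 4.44 FPKM at Zt +6 and at 5.07 and 7.56 at Zt +16, although its relative *Usp33*, with which it shares targets, went from 4.12 to 12.0 at Zt +6. The Y-linked copy of *Usp9x*, *Usp9y*, did not exceed 0.0229 FPKM in these males. The inactive *Usp39*, a splicing factor with the shortest transcript of the *Usp* genes counted, was at 1.27, 2.62, 0.924 and 1.35, and *Usp29*, an imprinted gene next to *Peg3*, at 1.17, 2.23, 1.35 and 1.97.

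*Usp10* was the only *Usp* gene counted with a lower value in *Snord116del* than in WT at Zt +6. It acts on p53 and in stress granules, and had FPKM values of 9.13 (WT) and 6.63 (*Snord116del*) at Zt +6 and of 11.8 and 15.3 at Zt +16, with differences of -0.41 and 0.35. Neither passed the 1.5-fold limit.

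The differences of the *Ube2* genes at Zt +6 ran from -0.49 to 1.51. *Ube2q2*, which has an extended N-terminal part, was at 1.96, 7.45, 0.929 and 1.30 FPKM, the same order of groups as in the long *Usp* genes (difference 1.51 at Zt +6). *Ube2g1*, which makes Lys48 chains, was at 1.01, 3.28, 0.857 and 1.21 (1.09), and *Ube2d3*, a general chain initiator, at 9.98, 22, 10.6 and 13.7 (1.07). *Ube2l3*, the partner of parkin and other cysteine ligases, was at 6.41, 14.4, 4.62 and 6.5 (1.06), and *Ube2w*, which attaches ubiquitin to N-termini, at 2.80, 6.69, 3.60 and 5.24 (1.02). In these 5 the highest group was again *Snord116del* at Zt +6.

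Within the E2 role classes, close relatives differed. Of the 6 chain initiators, *Ube2d2* (5.45, 8.83, 5.18 and 7.62 FPKM) and *Ube2d3* were counted as higher at Zt +6, whereas *Ube2d1* was nearly flat at 6.09, 6.30, 5.62 and 6.93. The UBE2D proteins are almost alike in sequence, and reads may be shared where their transcripts are. *Ube2e1* and *Ube2e3* had lower values in *Snord116del* at Zt +6, and *Ube2e2* had 12.1, 17.1, 12.9 and 19.2 FPKM. The Lys63 enzyme *Ube2n* was at 12.5, 24.9, 11.4 and 14.9 FPKM and was higher at Zt +6 by 0.94, as was its cofactor *Ube2v2* at 1.16, 3.09, 1.22 and 1.71 (0.92), while the other cofactor, *Ube2v1*, was below WT by 0.28. Of the 6 enzymes for Lys48 chains and degradation at the ER, *Ube2g1*, *Ube2j1* (2.81, 6.24, 2.25 and 3.70) and *Ube2k* (3.25, 7.24, 3.37 and 4.72) were higher, and *Ube2r2* had 4.76, 5.13, 4.87 and 6.77. Their relatives *Ube2g2*, at 10.3, 7.01, 14.8 and 22.7 FPKM, and *Ube2j2*, at 2.76, 2.12, 4.68 and 5.45, lay below WT at Zt +6 by 0.49 and 0.27, within the 1.5-fold limit.

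The E2 enzymes of ubiquitin-like proteins also split. *Ube2m* was higher at Zt +6 by 0.66, whereas *Ube2f*, the second E2 for NEDD8, had 5.60, 5.62, 7.32 and 9.46 FPKM, and *Ube2l6*, the E2 for ISG15, had 2.64, 2.60, 3.10 and 3.83. Of the chromatin and cell-cycle class, 3 of 5 were counted and 0 passed the limit at Zt +6. Their median difference was nonetheless 0.50, and 0.51 beyond genes of their length. In the other E2 classes the median beyond genes of their length lay between -0.27 and 0.05. *Ube2a* had 1.93, 3.32, 2.17 and 3.13 FPKM, and *Ube2s*, which extends Lys11 chains for the APC/C, had 11.9, 15.5, 6.27 and 12.0. Of the large E2s, *Ube2o*, which ubiquitinates without a separate E3, was at 5.97, 11.5, 4.49 and 6.85 and was higher by 0.84, while *Ube2z*, used by the E1 UBA6, was at 7.33, 6.08, 10.1 and 11.7. *Ube2h*, an E2 of the CTLH ligase, was at 7.49, 7.94, 10.5 and 16.7. At equal group medians the differences of *Ube2d2* and *Ube2m* at Zt +6 turned to -0.12 and -0.15.

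At Zt +16 every member counted was above WT in *Snord116del*, as were 96.8% of all genes, but few by 1.5-fold. The 70 differences ran from 0.19 to 0.84 for *Ube2* and from 0.03 to 0.73 for *Usp*, with medians of 0.40 and 0.28. Over all genes the median was 0.35, with 19.0% higher and 0.204% lower. The genes counted as higher were 6 of 30 *Ube2* (20.0%) and 2 of 40 *Usp* (5.00%). They were *Ube2s* (0.84), *Ube2m* (0.82), *Ube2v1* (0.75), *Ube2h* (0.63), *Ube2ql1* (0.62), *Ube2g2* (0.59), *Usp2* (0.73) and *Usp5* (0.71). After scaling to equal medians or quantile normalization 0 members were counted in either direction. Few genes of any kind were: 1.22% of all genes were higher and 0.515% lower at equal medians, and 0.388% and 0.505% after quantile normalization. The absence of members from these counts is thus no trait of the members. As deposited, the *Ube2* share was near that of all genes. At the lengths of the members 18.6% (*Ube2*) and 9.15% (*Usp*) of genes were higher.

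The pattern among members at Zt +6 followed transcript length. In all genes with a length (n = 10165), Spearman's rho across genes between the difference at Zt +6 and the length of the longest transcript was 0.63, and among the 70 members it was 0.55. It was 0.50 within the 40 *Usp* genes and 0.19 within the 30 *Ube2* genes. Genes are not independent replicates, and these values share the same 2 groups. At Zt +16 the sign was opposite, -0.38 over all genes and -0.46 over members. In bins of genes ordered by length, the median difference at Zt +6 ran from -0.47 in the shortest bin to 1.33 in the longest, whereas at Zt +16 it ran from 0.59 to 0.18.

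The distance between the families at Zt +6 was smaller among genes of like length, by an amount that depended on how length was held. At the lengths of the *Ube2* members 45.5% of all genes were higher, and at those of the *Usp* members 70.3%, beside the 40.0% and 82.5% of the members. After the median of the length bin was subtracted, the family medians were -0.0046 for *Ube2* and 0.15 for *Usp*, and the difference between them (*Ube2* minus *Usp*) went from -0.51 to -0.15. Restricted to members of 3 to 5 kb, a range chosen after the data were seen, 7 of 14 *Ube2* and 16 of 20 *Usp* genes were higher against 61.8% of all genes in the range, with medians of 0.59, 0.86 and 0.74, which left a difference of -0.27 between the families. Subtraction of the length trend left 5 *Ube2* genes higher and 10 lower, and 4 *Usp* genes higher and 2 lower. After the same step 12.4% of all genes were higher and 13.7% lower. *Usp15* (0.94), *Ube2q2* (0.86), *Ube2s* (0.69) and *Usp7* (0.63) lay well above genes of their length, and *Usp10* (-1.09), *Ube2z* (-1.0), *Usp20* (-0.98), *Ube2j2* (-0.93) and *Ube2e1* (-0.93) well below. Of the genes counted as higher at Zt +6, 1 of 12 *Ube2* (*Ube2o*) and 9 of 33 *Usp* genes (*Usp3*, *Usp12*, *Usp13*, *Usp19*, *Usp24*, *Usp37*, *Usp38*, *Usp46* and *Usp48*) had a negative difference after this step.

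**Figure D3:**
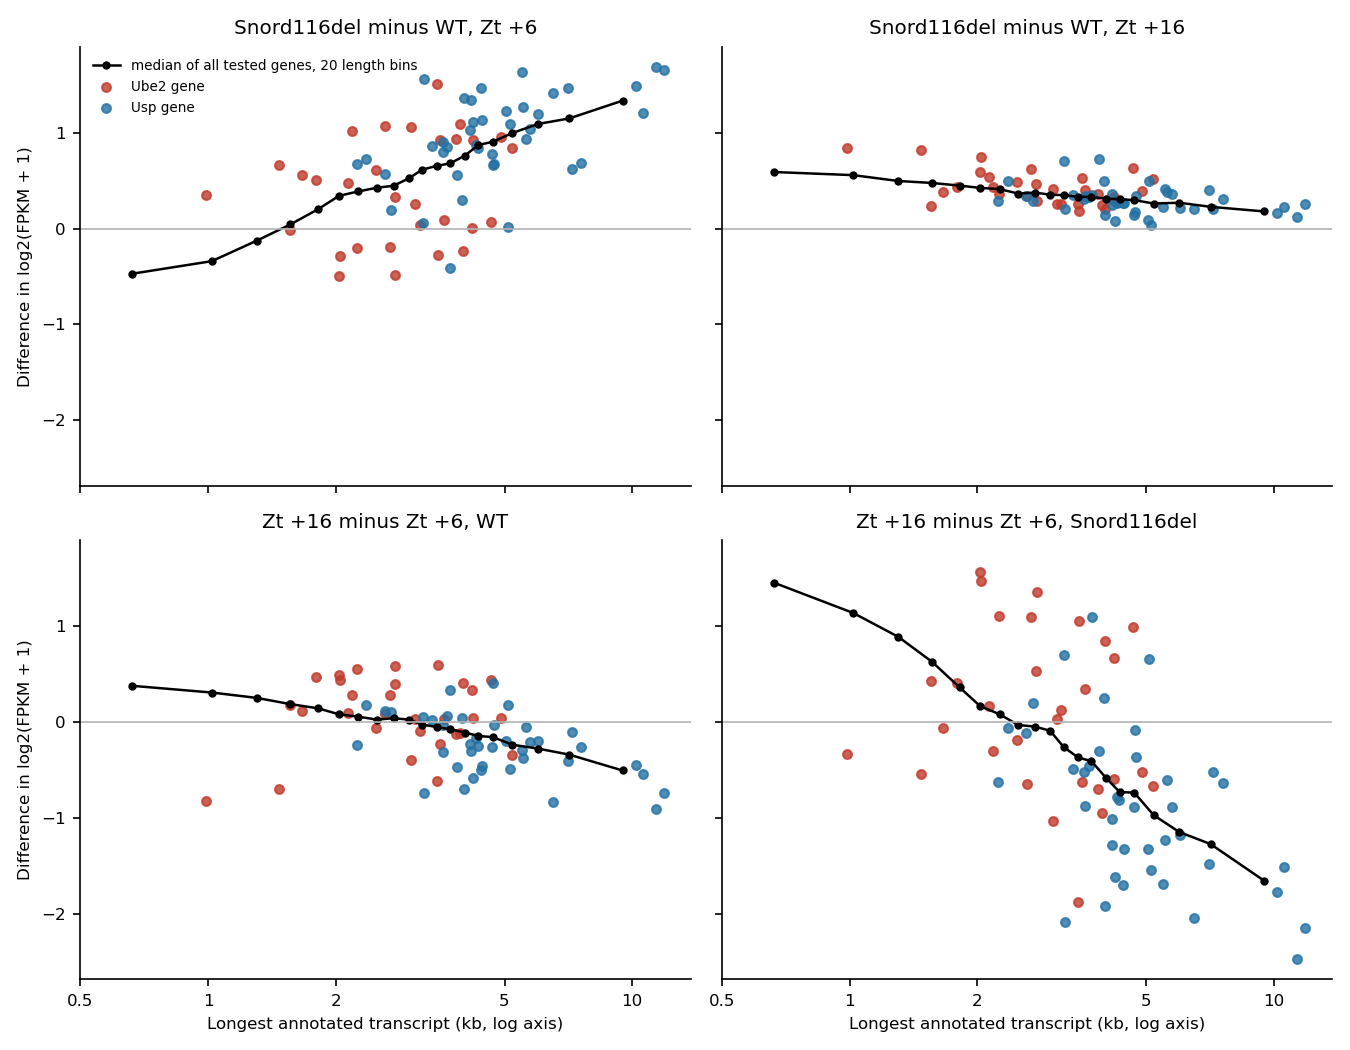
Differences in log2(FPKM + 1) against the longest annotated transcript (kb, log axis) for *Ube2* and *Usp* genes, with the median of all genes in 20 bins of length as a black line, in the 4 comparisons of groups. The members scatter about the line, which runs upwards for genotype at Zt +6 and downwards in the other 3 panels.

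Between the times in WT, few members differed. From Zt +6 to Zt +16, 1 *Ube2* gene was higher and 3 were lower, and 0 *Usp* genes were higher and 4 were lower, with medians of 0.09 and -0.25. Over all genes 5.71% were higher and 10.3% lower (median -0.04), so the share of lower members (10.0% in each family) was that of the table. At the lengths of the members 7.27% (*Ube2*) and 15.0% (*Usp*) of genes were lower. *Ube2j2* was higher at Zt +16, by 0.59. *Ube2s* (-0.83), *Ube2m* (-0.70) and *Ube2q2* (-0.62) were lower, as were *Usp34* (-0.91), *Usp54* (-0.83), *Usp15* (-0.74) and *Usp9x* (-0.74). At equal medians the counts were 5 higher and 3 lower for *Ube2* and 0 and 6 for *Usp*, against 10.8% higher and 9.48% lower of all genes.

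In *Snord116del* the difference between the times was much wider. Of the *Usp* genes 26 were lower at Zt +16 and 3 higher, with a median of -0.88 (28 lower and 3 higher without the limit on the mean, against 21.9% and 11.4% of all genes), and of the *Ube2* genes 8 were lower and 9 higher, with a median of 0.07. Over all genes 39.1% were lower and 25.0% higher, and the median was -0.24. At the lengths of the *Usp* members 58.5% of genes were lower and 8.80% higher, and at those of the *Ube2* members 33.1% and 23.9%. At equal medians 17 *Usp* genes were lower and 5 higher, and 2 *Ube2* genes lower and 14 higher. On that scale 26.5% of all genes were lower and 35.0% higher. The most negative differences were in *Usp34* (-2.48), *Usp9x* (-2.15), *Usp15* (-2.09) and *Usp54* (-2.04) among *Usp* and in *Ube2q2* (-1.87) among *Ube2*, and the most positive in *Ube2g2* (1.57), *Ube2v1* (1.47) and *Ube2e1* (1.36) among *Ube2* and in *Usp10* (1.10) among *Usp*. These comparisons share groups with those of genotype and are no separate support for them. With the length trend removed, the difference of the family medians (*Ube2* minus *Usp*) was 0.26 in place of 0.96 in *Snord116del*, and 0.10 in place of 0.33 in WT.

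No *Ube2* or *Usp* gene counted had its highest FPKM in a WT group. In 35 of the 40 *Usp* genes the highest group was *Snord116del* at Zt +6 and in 5 it was *Snord116del* at Zt +16, while the lowest was WT at Zt +16 in 30. Among the *Ube2* genes the highest group was *Snord116del* at Zt +6 in 14 and at Zt +16 in 16, and the lowest was WT at Zt +6 in 12, WT at Zt +16 in 10 and *Snord116del* at Zt +6 in 8. Over all genes counted the highest group was *Snord116del* at Zt +6 in 57.7%, *Snord116del* at Zt +16 in 41.1% and a WT group in 1.21%, and the lowest was WT at Zt +16 in 50.3%.

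The rest of the pathway, taken as whole lists, showed a similar range. Of 22 HECT ligases counted, with a median transcript of 5.93 kb, 20 were higher and 0 lower at Zt +6 (median 1.21, and 0.06 beyond genes of their length). Among all genes of 5.57 to 6.49 kb, 86.0% were higher at that time. At Zt +16, 0 of the ligases were higher (median 0.19), beside 4.53% of genes in that range of length. The ligases included *Huwe1*, at 6.16, 23.9, 2.21 and 2.54 FPKM, and *Ube3a*, the ligase encoded beside the deleted cluster, at 1.55, 5.41, 0.582 and 0.761. Of 7 E1 genes, 3 were higher and 0 lower at Zt +6 (median 0.46, and -0.14 beyond genes of their length) and 0 were higher at Zt +16 (0.35). The shares of all genes were 49.3% higher and 7.62% lower at Zt +6, and 19.0% higher and 0.204% lower at Zt +16. The genes of ubiquitin itself, whose transcripts are short, went the other way. Of 4, 2 were lower and 1 higher at Zt +6 (median -0.38, and -0.21 beyond genes of their length). At Zt +16, 2 were higher (median 0.67, and 0.19 beyond genes of their length). *Ubb*, a polyubiquitin gene, was at 815 and 469 FPKM at Zt +6 and at 1370 and 1904 at Zt +16.

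Of 24 deubiquitinases outside the USP family, 15 were higher and 2 lower at Zt +6 (median 0.86, and 0.06 beyond genes of their length). At Zt +16, 3 were higher (0.33). Over all genes 49.3% were higher and 7.62% lower at Zt +6, and 19.0% were higher at Zt +16. The lower genes were 2 of the 4 UCH genes, and of the others Bap1 was higher (1.05) and Uchl5 differed by 0.40. *Uchl1*, among the most abundant proteins of neurons, was at 450 and 142 FPKM at Zt +6 and at 816 and 1485 at Zt +16, and *Uchl3* at 6.58, 3.79, 7.23 and 9.45. *Uchl1* was thus lower by 1.66 in the light and higher by 0.86 in the dark in *Snord116del*, on either side of the *Usp* genes, none of which was counted as lower at either time. Its longest transcript was 1.15 kb, whereas no *Usp* gene counted was under 2.24 kb. Genes of 0.865 to 1.17 kb had median differences of -0.34 at Zt +6 and 0.56 at Zt +16.

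**Figure D4:**
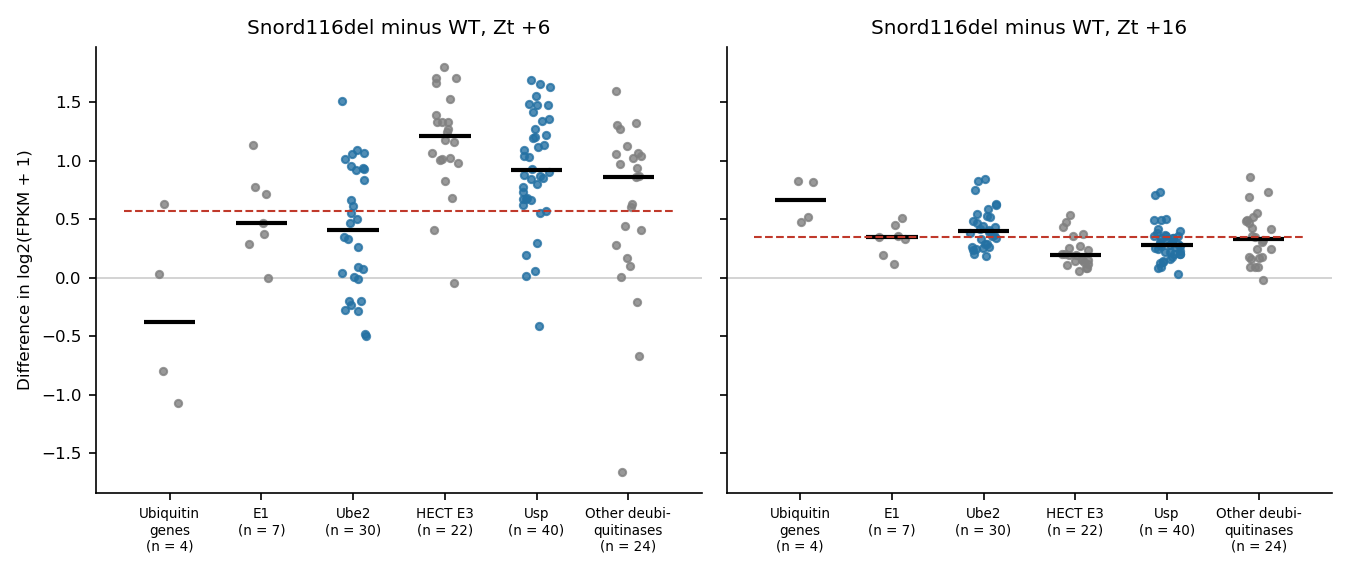
Differences in log2(FPKM + 1) between *Snord116del* and WT at Zt +6 and Zt +16 for the ubiquitin genes, E1, *Ube2*, HECT E3, *Usp* and other deubiquitinase lists; each point is 1 gene counted, black bars are list medians and the dashed line the median of all genes counted. At Zt +6 the list medians run from -0.38 for the ubiquitin genes to 1.21 for the HECT ligases, and at Zt +16 they lie between 0.19 and 0.67.

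The marker lists name cell types and not brain regions, so they do not check the cortex label. Markers of several cell types differed between the genotypes at Zt +6. Neuronal markers (6 genes) summed at Zt +6 to 689 (WT) and 947 FPKM (*Snord116del*), and at Zt +16 to 564 and 771. At Zt +6, 4 of 4 astrocyte markers (sum 73.1 and 220.0 FPKM), 3 of 3 endothelial markers (3.53 and 12.0), 3 of 4 microglial markers (17.6 and 38.2), 2 of 4 oligodendrocyte markers (383 and 614) and 3 of 6 neuronal markers were higher in *Snord116del*. Over all genes the share higher at that time was 49.3%. Choroid plexus markers summed to 202 and 183 FPKM at Zt +6 and to 25.3 and 30.0 at Zt +16. Nearly all of this was *Ttr*, at 200, 182, 24.9 and 29.6 FPKM, while *Folr1* and *Kl* stayed under 1 FPKM in every group. The part of these cell types in the members' values was not tested. *Snord116* itself was listed at 0 in all groups and so is no check of the genotype. The neighbouring *Ipw* was at 21.6, 3.40, 3.17 and 1.82 FPKM, with differences of -2.36 at Zt +6 and -0.57 at Zt +16, of which only the first passed the limit.

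In the ChIRP-seq lists, replicated *116HG* peaks lay at a larger share of members than of all genes under a 10 kb window, but not under each rule tried. Peaks of the 2 WT *116HG* libraries no more than 10 kb apart were taken as replicated, and were assigned to a gene if inside it or up to 2 kb away. By this rule 8 of 35 *Ube2* (22.9%) and 12 of 52 *Usp* genes (23.1%) had a replicated peak of replicate 1, against 10.9% of 21853 genes. At the gene lengths of the members the share of all genes was 12.6% for *Ube2* and 14.6% for *Usp*. The genes were *Ube2a*, *Ube2d2*, *Ube2e1*, *Ube2e3*, *Ube2g2*, *Ube2m*, *Ube2q2* and *Ube2v1*, and *Usp10*, *Usp13*, *Usp14*, *Usp15*, *Usp32*, *Usp37*, *Usp40*, *Usp46*, *Usp48*, *Usp49*, *Usp53* and *Usp54*. Some peak of replicate 1, replicated or not, lay at 33 *Ube2* and 44 *Usp* genes, 77 of 87, against 59.3% of all genes. The most were at *Usp9x* (42), *Usp32* (30) and *Usp34* (23). Across members the number of peaks had a rho of 0.49 with FPKM in WT at Zt +6, and of 0.35 with transcript length. The list of WT NSC had 0 peaks at members and those of *Snord116del* had 2 (*116HG*) and 5 (NSC), but these lists are shorter, with 3648, 1280 and 3418 peaks against 78033 in replicate 1.

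The 2 WT *116HG* libraries placed their peaks differently. Of the 543 peaks of replicate 1 at members 88.8% were centred in an annotated exon, although exons made up 10.1% of the members' spans, and of the 25 peaks of replicate 2 at members 0% were. Over the whole lists the shares were 71.6% and 2.27%. Several replicated peaks of replicate 1 lay in first exons, 68 bp from the annotated start of *Usp15*, 74 bp from that of *Ube2g2*, 91 bp from that of *Usp46* and 100 bp from that of *Ube2e1*, with GC contents of 69.0%, 73.1%, 65.8% and 66.3%. The peaks of replicate 2 at *Usp15*, *Usp46* and *Ube2e1* lay in introns. Direct overlap of the libraries, in place of the 10 kb window, left 2 *Ube2* genes (*Ube2d2* and *Ube2v1*) and 1 *Usp* gene (*Usp13*), against 3.32% of all genes, and among peaks in the upper quartile of the fold over input there were 2 *Ube2* and 7 *Usp* genes, against 5.39%.

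All 4 peaks of replicate 1 at members that overlapped a peak of replicate 2 lay outside exons and held a long run of A or of T. Those of *Ube2v1* and *Usp13* are shown from the NCBIM37 reference, the assembly of mm9, read on the plus strand, with every run of at least 15 A or 15 T in capitals. The first is replicate 1 at chr2:167445648-167445726, in an intron of *Ube2v1*, which lies on the minus strand, and the next 2 are replicate 1 at chr3:32719080-32719148 and at chr3:32744321-32744384, in introns of *Usp13*, on the plus strand. The fourth is the peak of replicate 2 in an intron of *Usp15*, at chr10:122633513-122633586, 468 bp from the annotated start. The fifth is replicate 1 in an intron of *Usp37*, at chr1:74491311-74491394. The last, replicate 1 in an intron of *Usp40* at chr1:89853305-89853371, is given for contrast, as a replicated intronic peak with no such run.
*Ube2v1*, replicate 1: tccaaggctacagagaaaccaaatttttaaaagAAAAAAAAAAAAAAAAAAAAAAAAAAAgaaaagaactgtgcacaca
*Usp13*, replicate 1, first peak: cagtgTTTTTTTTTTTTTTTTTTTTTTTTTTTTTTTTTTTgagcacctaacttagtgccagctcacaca
*Usp13*, replicate 1, other peak: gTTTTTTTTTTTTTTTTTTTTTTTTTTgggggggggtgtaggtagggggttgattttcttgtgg
*Usp15*, replicate 2: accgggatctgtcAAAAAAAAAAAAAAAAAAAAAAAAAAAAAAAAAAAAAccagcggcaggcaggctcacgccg
*Usp37*, replicate 1: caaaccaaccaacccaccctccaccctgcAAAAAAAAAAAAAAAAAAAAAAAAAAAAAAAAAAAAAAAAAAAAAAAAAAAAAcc
*Usp40*, replicate 1: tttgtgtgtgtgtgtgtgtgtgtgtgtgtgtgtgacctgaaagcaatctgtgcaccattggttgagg

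The runs were 27 bases in *Ube2v1*, 35 and 26 in *Usp13*, 37 in *Usp15* and 53 in *Usp37*, and the longest run in the *Usp40* peak was 3. The authors' fold over input was 159 for the peak of *Ube2v1*, 89.8 and 86.2 for those of *Usp13* and 151 for that of *Usp37*, against 219 for the exonic peak of *Usp15*. The same feature marked the overlapping peaks of the whole lists. A run of at least 15 A or T was in 11.0% of the peaks of replicate 1, in 38.3% of those of replicate 2, and in 87.5% of the 1915 peaks of replicate 1 that overlapped a peak of replicate 2. It was in 27.6% of all peaks counted as replicated by the 10 kb window, in 18.8% of the 48 at members, and in 6.99%, 0.944% and 1.18% of the WT NSC, *Snord116del* *116HG* and *Snord116del* NSC lists. At members the runs were thus in the 4 peaks on which both libraries coincided, and in 5.89% of the 543 peaks of replicate 1.

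**Figure D5:**
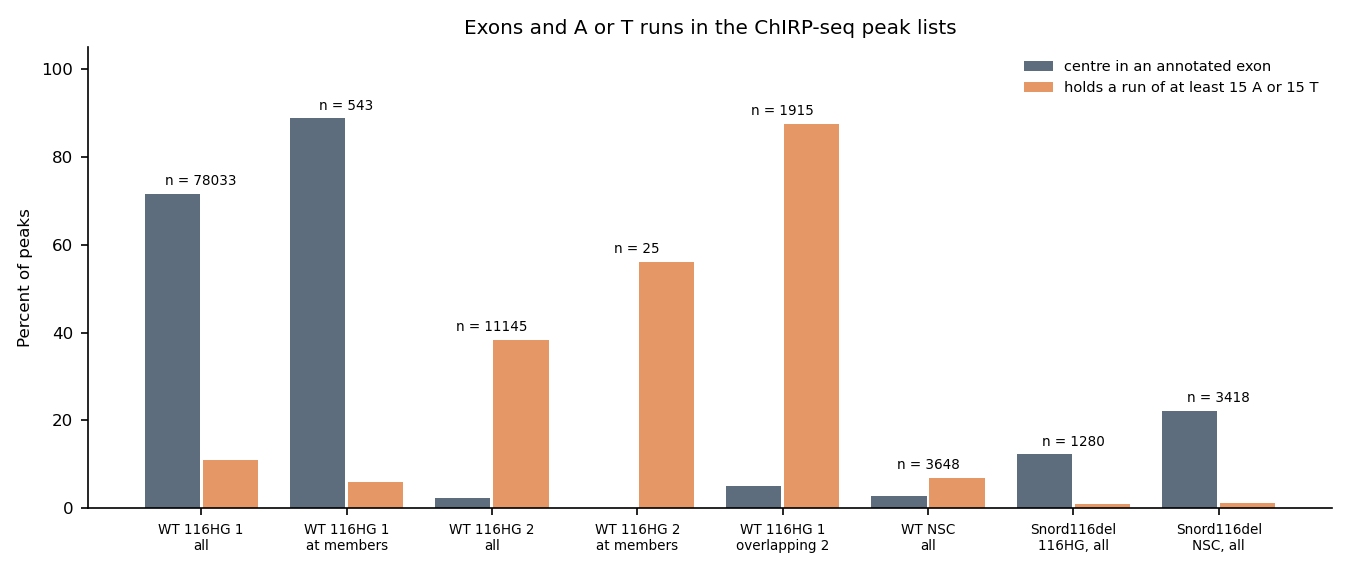
Percent of peaks centred in an annotated exon and percent holding a run of at least 15 A or 15 T, for the 5 ChIRP-seq lists and for the peaks of the WT *116HG* libraries within 2 kb of a *Ube2* or *Usp* gene (members); n is the number of peaks. Replicate 1 at members was 88.8% exonic and replicate 2 was 0%, and 87.5% of the peaks of replicate 1 that overlapped replicate 2 held a run.

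Of the 19 counted members with a replicated peak, 13 were higher and 0 lower in *Snord116del* at Zt +6, beside 49.3% and 7.62% of all genes. With or without a peak, 12 of 30 *Ube2* and 33 of 40 *Usp* genes were higher, and 70.3% of genes at the *Usp* lengths. A difference between members with and without a replicated peak was not tested. *Usp15* (1.56), *Ube2q2* (1.51), *Usp32* (1.47) and *Usp54* (1.41) differed most, and *Ube2g2* (-0.49), *Ube2e1* (-0.48), *Usp10* (-0.41), *Ube2v1* (-0.28) and *Ube2e3* (-0.20) had values below WT within the 1.5-fold limit. *Usp9x* and *Usp34*, which had the most or nearly the most peaks of replicate 1, had 0 replicated peaks.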

How the data were processed

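RNA-seq of mouse cortex and ChIRP-seq of mouse brain were analysed. Per the labels and the study's methods, RNA-seq reads were aligned by the authors to mm9 (TopHat2), and Cuffdiff combined the mice of a group into the 1 deposited FPKM value for each gene. The deposited table also holds the authors' log2 fold changes, q-values and significance calls for *Snord116del* against WT, which were not used. ChIRP-seq reads were aligned with Bowtie2 and peaks called by the authors with MACS in each library against input. The deposited lists give positions and, except for WT *116HG* replicate 2, the fold over input as a ratio. The submitters' processing notes name CASAVA 1.8.0, Bowtie2 2.0.0, MACS 1.4.2, TopHat2 2.0.5 and Cuffdiff 2.0.2.

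From these values, log2(FPKM + 1) was compared between groups with the 1.5-fold rule, with a mean of at least 1 FPKM. The design foresaw group values, so no test was run. All 87 members matched GENCODE annotation of NCBIM37 by symbol, as did 21853 of 23235 genes. The length trend was the median of 20 bins of genes. Members, lists (pathway, roles and markers) and tests were chosen with earlier results of these data known. Members were named by a rule: in each family the 5 with the highest mean, the 5 and 5 most changed at Zt +6, the 3 and 3 at Zt +16, the 3 longest and 3 shortest, and a set chosen for their roles. Some genes in the counts are not reported here by name. Others named for peaks or for distance from genes of their length were chosen after their values were seen. The steps were tested on simulated data. Python 3.11.15, numpy 2.4.6, pandas 2.3.3, scipy 1.17.1 and matplotlib 3.10.9 were used. Alternatives covered pseudocount, filter, fold, scale of the groups, transcript length, membership and the peak rules.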

Additional observations from a re-analysis of the deposited data

Results flagged for a closer look

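In 9 members the value of *Snord116del* was below that of WT at Zt +6 and above it at Zt +16. They were 8 of the 30 *Ube2* genes and 1 of the 40 *Usp* genes. Of all genes counted, 23.8% had differences of opposite sign at the 2 times, in either direction. The share of all genes with the direction seen in these members was not computed. The difference on the log2 scale at Zt +6 minus that at Zt +16 was -1.08 for *Ube2g2*, -1.03 for *Ube2v1*, -0.82 for *Ube2ql1*, -0.77 for *Ube2e1*, -0.76 for *Usp10*, -0.56 for *Ube2e3*, -0.46 for *Ube2j2*, -0.44 for *Ube2z* and -0.25 for *Ube2l6*. With 1 value per group the difference between the times was not tested, and in no member did both differences pass the 1.5-fold limit.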

How the results depend on the processing

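No paired analysis was possible because the table has 1 value per group, and leaving out replicates was not possible for the same reason. The limits are the missing spread between mice, unknown depth per library in the table, and medians and sums of FPKM that differ between groups. Counts are given for *Ube2* and *Usp* in that order. Genes higher at Zt +6 in *Snord116del* numbered 12 and 33; they were 6 and 7 with a mean of at least 5 FPKM, 5 and 19 at 2-fold, 1 and 13 at equal medians, 5 and 17 after quantile normalization, and 5 and 4 with the length trend removed. At Zt +16 the 6 and 2 higher genes became 0 and 0 at 2-fold, at equal medians, after quantile normalization and with the length trend removed. Genes lower at Zt +16 in WT numbered 3 and 4, and 0 and 0 at 2-fold; for *Usp* they were 7 with a pseudocount of 0.1, 0 at 5 FPKM and 1 with the length trend removed. In *Snord116del* the 8 and 26 lower genes became 4 and 4 at 5 FPKM, 2 and 17 at equal medians and 5 and 17 after quantile normalization, 2 for *Ube2* at 2-fold, and 10 for *Usp* with the length trend removed. The *Ube2* minus *Usp* median at Zt +6 (-0.51) was -0.76 with a pseudocount of 0.1, -0.67 at equal medians, -0.15 with the length trend removed and -0.27 at 3 to 5 kb. At Zt +16 (0.12) it was 0.0089 after quantile normalization and 0.014 at 3 to 5 kb. Between times in WT (0.33) it was 0.50 with a pseudocount of 0.1, 0.13 at 5 FPKM, 0.17 after quantile normalization and 0.10 with the length trend removed, and in *Snord116del* (0.96) it was 1.23, 0.46, 0.43 and 0.26 under these, 0.61 with no filter and 0.55 at 3 to 5 kb. It kept its sign in every case run. The rho of the members' differences with length was 0.43 in place of 0.55 at Zt +6 with the median transcript and 0.26 at 5 FPKM, -0.15 in place of -0.46 at Zt +16 at equal medians, and, at 5 FPKM, -0.19 in place of -0.45 in WT and -0.30 in place of -0.58 in *Snord116del*. Members with a replicated peak numbered 8 and 12, but 2 and 1 with direct overlap, 2 and 7 in the upper quartile of the fold over input, and for *Ube2* 4 with the peaks of replicate 2. Of the differences of named members counted as higher or lower, 80 in all, 4 changed sign at equal medians: *Ube2d2* (-0.12), *Ube2m* (-0.15), *Usp14* (-0.014) and *Usp46* (-0.0014) at Zt +6. With the length trend removed, 9 did: *Ube2o* (-0.16), *Usp12* (-0.028), *Usp13* (-0.47), *Usp24* (-0.13) and *Usp46* (-0.23) at Zt +6, and *Ube2o* (0.31), *Ube2v2* (0.14), *Usp13* (0.64) and *Usp24* (0.14) between the times in *Snord116del*. No other setting changed a sign. Leaving out *Ube2cbp* and *Usp6nl* changed nothing, since neither was counted. The cause of the other moves was not tested; fewer genes were counted at 5 FPKM and at 2-fold by construction.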
